A study of Rattus norvegicus with 43 samples.

Results

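Folic acid at 100 ng/ml (excess) was compared with 10 ng/ml (sufficient) after 7 days of culture in A7r5, an established rat line of aortic smooth muscle. The comparison held 9 of the 43 arrays of the series, 4 from excess and 5 from sufficient medium, chosen by the day and dose in the sample titles. All cells were the same unmodified line in custom-made DMEM, and the media differed in folic acid. Another 4 arrays of day 7 came from deficient medium (2.5 ng/ml), and days 14 and 21 had 5 arrays for each medium. Messenger RNA was measured on Affymetrix rat arrays, which read mainly the 3' ends of transcripts, and values are log2 expression, so a difference of 1 is a doubling of the level. Levels on such an array are not comparable between genes. Whether replicates came from separate cultures is not stated in the labels, and the p-values cover the spread among the arrays alone, part of which may be technical. The study's title asks about deficiency, and excess medium is the higher dose.

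Cells take up folic acid through a carrier and receptors, reduce it to tetrahydrofolate and load it with single-carbon units. These units go into thymidylate and purines, into methionine through the methyl cycle, and, in a mitochondrial branch, into formate and formylated initiator tRNA. Vascular smooth muscle cells contract through actin and myosin, and in culture they also divide and deposit matrix. A medium with more folic acid can therefore be read on the folate enzymes themselves, on genes of division, and on genes of energy and stress metabolism.

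After 7 days more genes were lower than higher in excess medium, and the differences were small. Of 9095 genes tested, 216 (2.37%) passed an adjusted p of 0.05 in limma, 25 higher (0.275%) and 191 lower (2.1%). Their median size was 0.40 on the log2 scale, and 20 of them (0.22%) reached 1.5-fold, 18 lower and 2 higher. Those 2 were Pttg1 and Cdc20, both of chromosome separation. The largest falls without overlap between the media were those of Cox6a2, a muscle form of a respiratory subunit, Casp4, an inflammatory caspase, Bnip3, a mitophagy gene, and Slc2a1, a glucose transporter. The array values of the media did not overlap for 121 of the called genes, 106 lower and 15 higher. Of all genes tested, 421 (4.63%) did not overlap. Calls and overlap are read from the same arrays, so the missing overlap is no separate support for the calls.

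The number of calls and their balance moved with the scale of the arrays. Of all genes tested, 67% had a difference below 0, with a median of -0.06, and the median of the genes tested lay between 7.82 and 7.88 in excess and between 7.87 and 8.0 in sufficient arrays. With each array centred on that median, 87 genes passed, 43 higher and 44 lower, and after a further quantile normalization 102 passed, 36 higher and 66 lower. In the fit as reported, 88.4% of the calls were lower, against 50.6% and 64.7% in these. Centring sets the median difference of all genes near 0 by construction, so its even split is no separate measurement of balance. All 216 genes kept their sign under both, 69 and 91 of them with the call. Centring moved the median difference of all genes from -0.06 to 0.02, and the smallest called size was 0.21. No called sign could therefore turn under centring, and the kept signs are no separate check of the calls. A subset of 57 called genes, 15 higher and 42 lower, also passed under both scalings, in arrays with serials up to 45 and with RNA quality as a covariate. This subset was formed after the values were seen, and it holds Cox6a2, Casp4, Bnip3, Slc2a1, Pfkp, Pdk1, Capg, Lims2, Slc40a1, Pttg1, Cdc20 and Fscn1.

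Array quality also moved with the groups. The log2 difference between the 3' and 5' probe sets of beta-actin, which grows as RNA is degraded or copied incompletely, was 2.23 and 2.38 in sufficient replicates 1 and 2 and between 1.5 and 1.84 in the other sufficient arrays. In excess arrays it lay between 1.5 and 1.90. With arrays up to 2 alone, 25 genes passed, 5 higher and 20 lower, and all 216 genes kept their sign. That fit leaves out sufficient replicates 1 and 2 and shares the other compared arrays with the reported fit. Replicate 6 of both media carries a title serial above 45 (46 and 47). The labels do not state what the serial marks, and serials above 45 were treated as a possible separate series of arrays. These arrays stood apart on the first principal component of the day 7 arrays, at 22.6 and 17.9 against -13.1 to 6.28 for the rest. A fit of serials up to 45 alone also left out arrays of later days. In that fit, 672 genes passed, 46 higher and 626 lower. Which of these differences between arrays moved the calls was not tested.

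**Figure D1:**
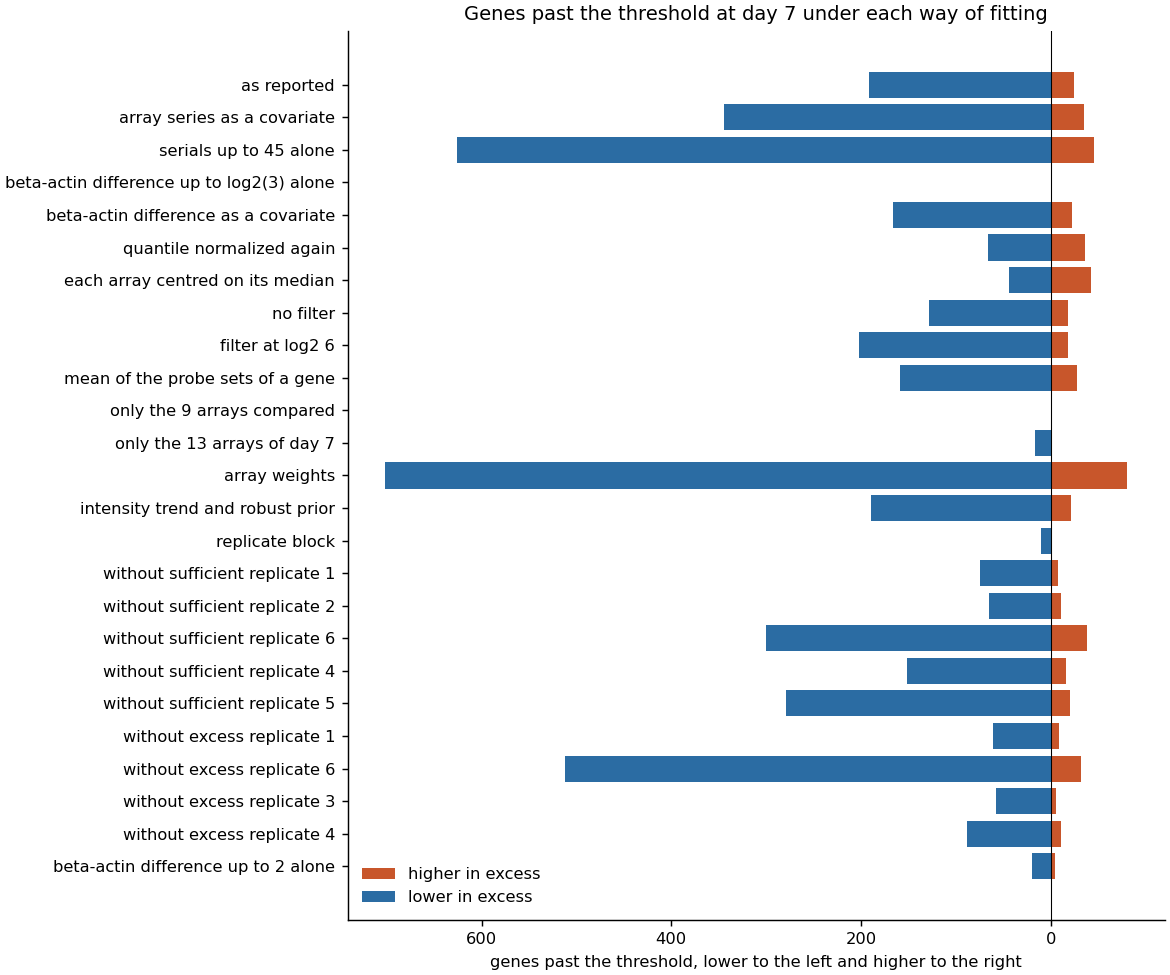
Number of genes past an adjusted p of 0.05 in limma at day 7 (x axis; lower in excess medium to the left, higher to the right) under 25 ways of fitting (y axis). The reported fit gave 191 lower and 25 higher, array weights 702 and 81, serials up to 45 alone 626 and 46, and 0 genes passed with the 9 compared arrays alone or with beta-actin differences up to log2(3).

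The number of calls rested on the spread pooled over all 43 arrays. With the 9 compared arrays alone, 0 genes passed in limma and 1196 had an unadjusted p below 0.05, against 1538 (16.9%) in the reported fit, 219 higher (2.41%) and 1319 lower (14.5%). With the 13 arrays of day 7, 16 genes passed, all lower. Leaving out 1 array at a time gave between 64 and 544 genes. The count was 82 without sufficient replicate 1, 76 without replicate 2 and 338 without replicate 6, and it was 70 without excess replicate 1, 64 without replicate 3, 99 without replicate 4 and 544 without replicate 6. Of the 216 genes, 34 passed in each of the 9 fits without 1 array, 3 higher and 31 lower.

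The cells carried the smooth muscle markers of their label, and none of these was called between the media. All 10 markers were measured, and in limma 0 passed and 1 had an unadjusted p below 0.05. Acta2, smooth muscle actin, was at 14.13 ± 0.36 in excess and 14.15 ± 0.33 in sufficient medium (SD, n = 4 and 5; adjusted p = 0.969 in limma), and Tagln at 14.02 ± 0.03 and 14.07 ± 0.05. Replicate 6 was the lowest Acta2 array of each medium, at 13.58 and 13.56. Myh11, at 5.37 and 5.45, and Synpo2, at 4.91 and 4.92, lay nearer the filter limit of 4. Cnn1 and Myocd did not overlap between the media, with differences of -0.19 and 0.22 (adjusted p = 0.0585 and 0.328 in limma). Of 10 markers each, 2 of endothelial cells, 1 of macrophages, 2 of epithelial cells and 2 of adipocytes passed the filter. In limma 0 of these were called and 1 had an unadjusted p below 0.05, Vwf. The epithelial marker Krt8 was at 7.27 ± 0.17 in excess and 7.43 ± 0.11 in sufficient medium. The adipocyte marker Lpl was at 6.11 ± 0.34 and 6.32 ± 0.12, and both lay above Myh11. Vwf, of endothelial cells, was near background, at 3.67 ± 0.13 and 3.97 ± 0.09. Fibroblast markers, 6 of which were measured, include Col1a1 and Thy1, which smooth muscle cells in culture also express, and 0 were called, with 1 at an unadjusted p below 0.05. In bulk samples, fewer cells of a kind and less RNA per cell cannot be told apart.

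Of 17 measured genes of glucose uptake and glycolysis, 3 fell in excess medium (17.6%, against 2.1% of all genes tested). Glycolysis takes glucose to pyruvate after uptake by transporters of the Slc2 family, and Pdk1 encodes a kinase that holds pyruvate back from the mitochondria. Slc2a1, Pfkp and Pdk1 fell and 0 genes rose, and all 17 differences were below 0, with a median of -0.15 against -0.06 for all genes tested. The median was -0.11 after a further quantile normalization and -0.07 with centred arrays, where the median of all genes was 0.02. Between the replicate 6 arrays alone the list median was -0.02, with 8 of 17 differences above 0.

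Slc2a1 (probe set 1370848_at), the basal glucose transporter of most cultured cells, measured 6.63, 6.82, 6.95 and 6.64 in excess replicates 1, 6, 3 and 4. In sufficient replicates 1, 2, 6, 4 and 5 it measured 7.43, 7.58, 7.09, 7.72 and 7.32. Each excess array was below each sufficient one, the nearest being excess replicate 3 and sufficient replicate 6. Slc2a1 fell by 0.67 ± 0.11 (SE), or 1.59-fold, with an adjusted p of 0.000994 in limma. The call was lost in 2 of 24 other fits, those that gave 0 calls at all.

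Pfkp, the platelet-type subunit of phosphofructokinase, was tightly held in sufficient medium, between 8.39 and 8.52, and measured 7.5, 8.24, 7.63 and 7.92 in excess replicates 1, 6, 3 and 4. Replicate 6 was thus the closest to the sufficient arrays. The mean difference was -0.61 ± 0.12 (SE; adjusted p = 0.00445 in limma), and -0.16 between the replicate 6 arrays alone. Pdk1 measured 7.83, 7.62, 7.68 and 7.60 in the excess arrays and between 8.05 and 8.21 in the sufficient ones, so its groups were well separated. It fell by 0.45 ± 0.09 (adjusted p = 0.00574). Of the members not past the threshold, Tpi1 differed by -0.17 ± 0.05, Pgm1 by -0.24 ± 0.08 and Pgk1 by -0.11 ± 0.04, with adjusted p of 0.0757, 0.1 and 0.128.

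Genes of the hypoxia response divided in direction. The list holds genes that hypoxia-inducible factors are known to raise. Of 32 measured members 2 fell, Bnip3 and Ndrg1 (6.25%, against 2.1% of all genes tested). Adm alone rose (3.12%, against 0.275%). In all, 27 differences were below 0, with a median of -0.17, which was -0.10 and -0.09 under the 2 other scalings. Bnip3 (probe set 1387805_at), a mitochondrial protein of mitophagy and cell death, measured 7.97, 8.50, 7.66 and 8.43 in excess replicates 1, 6, 3 and 4, a wide range. In the sufficient arrays it lay between 8.61 and 9.03, above every excess array. Bnip3 fell by 0.69 ± 0.10 (SE), or 1.61-fold (adjusted p = 0.000438 in limma), and the call was lost in 3 of 24 other fits.

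Ndrg1, a protein of growth arrest and differentiation, was close to background, at 4.03 ± 0.15 in excess and 4.55 ± 0.24 in sufficient medium (SD, n = 4 and 5; adjusted p = 0.00753 in limma). Adm encodes adrenomedullin, a vasodilating peptide. It measured 5.65, 6.15, 5.77 and 5.83 in excess replicates 1, 6, 3 and 4 and between 5.30 and 5.58 in the sufficient arrays, without overlap. Its difference was 0.41 ± 0.10 (adjusted p = 0.0239 in limma), against the direction of the other called members. The call was lost without sufficient replicate 1 or 2 and without excess replicate 3, 4 or 6, with adjusted p up to 0.0872.

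The promoters of Bnip3 and Slc2a1 are shown because the transcription factor of the hypoxia response is known to bind the letters ACGTG or GCGTG, marked in capitals on either strand, and matches can overlap. These are the 160 bases before the annotated start, 5′ to 3′ on the strand of the gene, from RefSeq, build GRCr8, at chr1:203154963-203155122 (minus strand) and chr5:138002362-138002521 (plus strand).
Bnip3: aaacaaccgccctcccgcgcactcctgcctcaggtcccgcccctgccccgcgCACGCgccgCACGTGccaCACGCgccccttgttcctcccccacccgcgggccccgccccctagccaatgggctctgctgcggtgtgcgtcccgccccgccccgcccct
Slc2a1: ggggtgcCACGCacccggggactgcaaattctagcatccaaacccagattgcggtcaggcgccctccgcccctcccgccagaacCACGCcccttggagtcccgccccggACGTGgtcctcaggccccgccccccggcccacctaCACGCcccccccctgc
Bnip3 has 4 matches, which begin 108, 99, 98 and 90 bases before the start, and Slc2a1 has 4, at 153, 76, 51 and 16 bases. In the 250 bases before the start, the motif was found in 19 of 27 hypoxia-list promoters (70.4%) and in 11 of 15 glycolysis promoters (73.3%). It was also common elsewhere, in 58.5% of the promoters of genes tested and in 52.5% of the promoters of genes that fell.

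**Figure D2:**
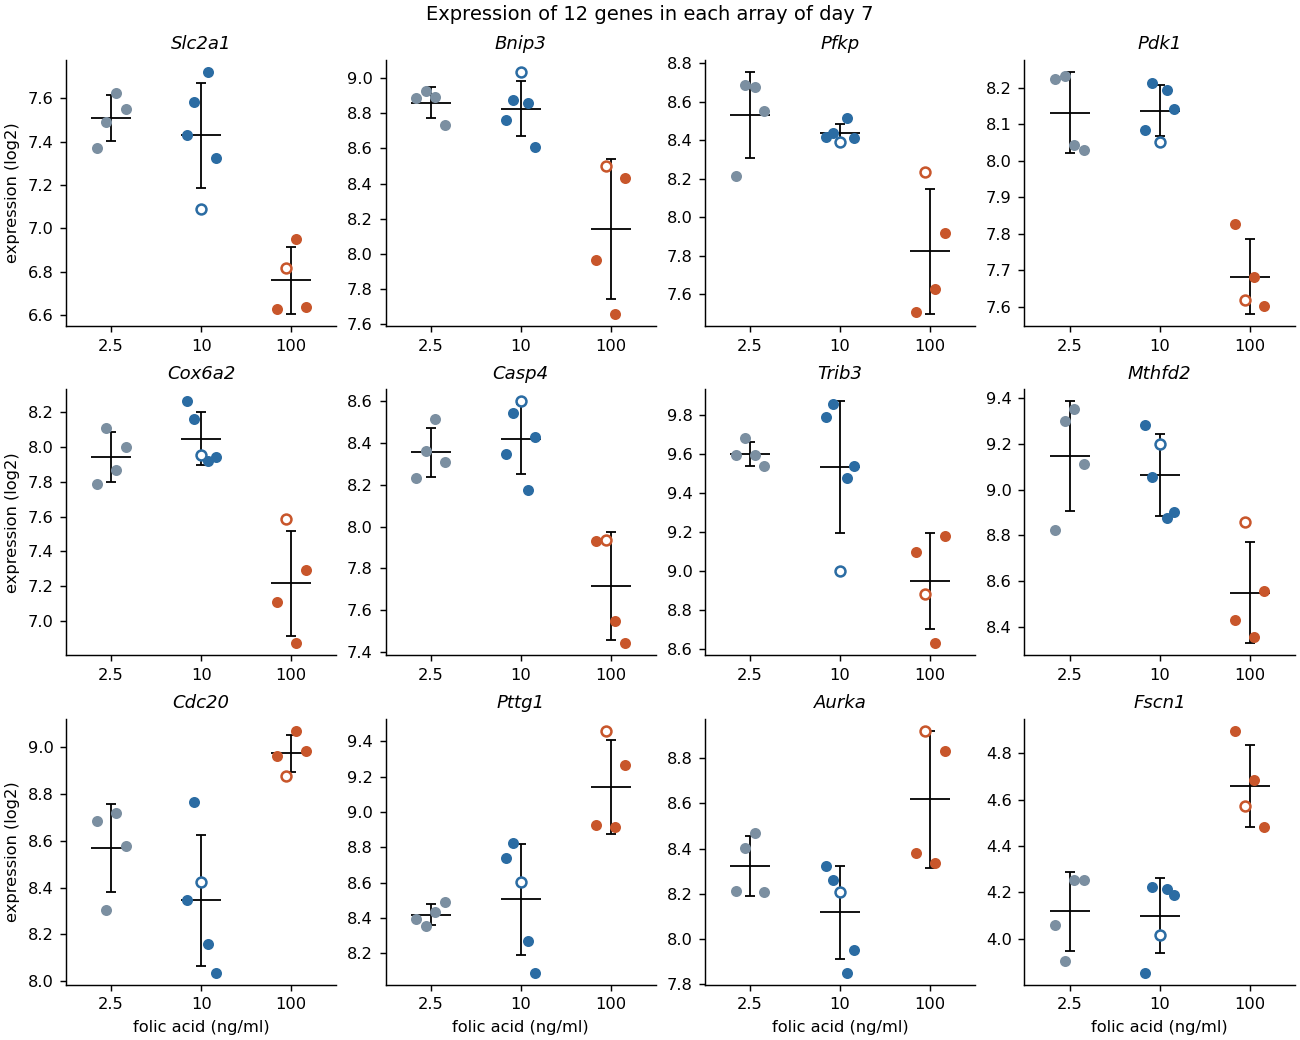
Log2 expression (y axis) of 12 genes in each array of day 7 by folic acid in ng/ml (x axis, not to scale), with 4 deficient, 5 sufficient and 4 excess arrays; bars give mean and SD, and open points are the replicate 6 arrays with a title serial above 45. The excess arrays of Slc2a1 lie between 6.63 and 6.95 and those of Cdc20 between 8.88 and 9.07, on opposite sides of the sufficient arrays.

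Of the 22 lists, mitosis held the most genes that rose. The mitosis list covers the spindle checkpoint, centromere and chromosome separation, and of 54 measured members 6 rose and 0 fell. This was 11.1% of the list, against 0.275% of all genes called higher, and 45 of 54 differences were above 0, with a median of 0.16. The median was 0.21 and 0.24 under the 2 other scalings and 0.22 with beta-actin differences up to 2, and it was 0.10 in serials up to 45. Of 41 DNA replication genes 1 fell (2.44%, against 2.1% of all genes tested) and 0 rose. This was Rfc2, a call lost in 17 of 24 other fits. The median of the replication list was -0.05, which was above 0 under both other scalings. The difference between these lists was not tested.

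Pttg1 (probe set 1367780_at), or securin, holds separase inactive until anaphase. It measured 8.93, 9.46, 8.92 and 9.27 in excess replicates 1, 6, 3 and 4 and 8.74, 8.82, 8.60, 8.27 and 8.09 in sufficient replicates 1, 2, 6, 4 and 5. The excess arrays were all above the sufficient ones. Its rise was 0.64 ± 0.14 (SE), or 1.56-fold (adjusted p = 0.0112 in limma). Cdc20 (probe set 1370294_a_at), the activator of the anaphase-promoting complex that degrades securin, measured 8.96, 8.88, 9.07 and 8.98 in excess and 8.35, 8.77, 8.42, 8.16 and 8.04 in sufficient arrays. It rose by 0.63 ± 0.14 (adjusted p = 0.0115 in limma), and without excess replicate 3 the adjusted p was 0.0557. The sufficient arrays spread more widely than the excess ones for this gene, with SDs of 0.28 and 0.08.

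The kinase gene Aurka rose by 0.50 ± 0.12 (SE), Cenpe of the kinetochore by 0.50 ± 0.13, Incenp, the inner centromere partner of Aurora B, by 0.51 ± 0.13, and the checkpoint kinase gene Bub1 by 0.24 ± 0.07, with adjusted p between 0.0233 and 0.04 in limma. Aurka measured 8.38, 8.92, 8.34 and 8.83 in excess replicates 1, 6, 3 and 4, and its highest sufficient array was 8.32, so the groups nearly touched. Each of these 4 calls was lost on leaving out some single array. Ncapd2, a condensin subunit outside the list, rose by 0.43 ± 0.11 (adjusted p = 0.0347). Cks2, Plk1 and Dsn1 did not pass, with differences of 0.30, 0.35 and -0.36 and adjusted p of 0.0674, 0.0829 and 0.064. Hnrnpa2b1, an RNA-binding protein of splicing, was the higher gene with the smallest adjusted p, with a rise of 0.37 ± 0.07 (adjusted p = 0.00227).

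The promoters of Cdc20 and Pttg1 are shown for the cell cycle homology region, written here as TTTGAA or TTCGAA, and the CCAAT box, the motifs through which late cell cycle genes are known to be held back and activated. Capitals mark matches to either on either strand in the 160 bases before the start, from RefSeq, build GRCr8, at chr5:137255800-137255959 and chr10:28406327-28406486, both on the minus strand.
Cdc20: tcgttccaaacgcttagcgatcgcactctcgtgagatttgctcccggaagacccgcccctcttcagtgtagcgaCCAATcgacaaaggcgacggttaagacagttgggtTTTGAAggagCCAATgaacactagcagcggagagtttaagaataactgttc
Pttg1: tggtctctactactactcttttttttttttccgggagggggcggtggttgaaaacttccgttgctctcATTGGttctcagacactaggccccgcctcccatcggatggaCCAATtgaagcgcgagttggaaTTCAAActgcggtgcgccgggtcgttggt
The homology region begins 51 bases before the start in Cdc20 and 29 in Pttg1, with CCAAT boxes at 86 and 41 and at 92 and 51 bases. In 250 bases, the homology region was found in 24 of 48 promoters of the mitosis list (50%), against 11.8% of the promoters of genes tested, and the CCAAT box in 36 of 48 (75%), against 36.7%. Of the 5 called mitosis genes with a promoter in the table, 2 held the homology region, which were these.

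Among stress-response regulators and genes of amino acid supply, 2 genes of each list fell. They were 12.5% and 6.67% of the lists, against 2.1% of all genes tested. The regulators act in the pathway that slows translation and induces Atf4, and of 16 measured, 2 fell and 0 rose, with a median of -0.16 (-0.14 and -0.08 under the 2 other scalings). Gadd45a, a growth arrest gene that p53 also induces, measured 9.84, 10.50, 9.80 and 10.14 in excess replicates 1, 6, 3 and 4 and between 10.47 and 10.82 in sufficient arrays. Excess replicate 6 overlapped the sufficient arrays, and the other excess arrays lay below them. It fell by 0.62 ± 0.15 (SE; adjusted p = 0.0218 in limma). This call was lost under both other scalings (adjusted p = 0.0599 and 0.0833).

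Trib3, a pseudokinase induced by Atf4, measured 9.10, 8.88, 8.63 and 9.18 in excess replicates 1, 6, 3 and 4 and 9.79, 9.86, 9.00, 9.47 and 9.54 in sufficient replicates 1, 2, 6, 4 and 5. Sufficient replicate 6 alone lay within the range of the excess arrays, and the highest sufficient values were those of replicates 1 and 2, which also had the largest beta-actin differences. Trib3 fell by 0.58 ± 0.14 (adjusted p = 0.0206 in limma). With beta-actin differences up to 2 the difference was -0.39 (adjusted p = 0.193), and with centred arrays -0.51 (adjusted p = 0.0513). Eif4ebp1, Chac1 and Ddit3 did not pass, with differences of -0.46, -0.38 and -0.36 (adjusted p = 0.0625, 0.146 and 0.0791), and between the replicate 6 arrays alone they differed by 0.04, 0.40 and 0.03.

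The promoter of Trib3 is shown because it holds the composite element bound by Atf4 and its partners, TGATGNAA, with its single match in capitals on the reverse strand, 21 bases before the start. The 160 bases lie at chr3:161275534-161275693 (minus strand, RefSeq, build GRCr8).
Trib3: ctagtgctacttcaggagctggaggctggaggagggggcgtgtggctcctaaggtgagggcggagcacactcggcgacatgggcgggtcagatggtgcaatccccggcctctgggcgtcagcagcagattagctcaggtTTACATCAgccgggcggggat
The element was found in 250 bases in 5 of 15 promoters of the regulators (33.3%) and in 9 of 26 of the amino acid list (34.6%), against 1.67% of the promoters of genes tested. It was found in 6 of 160 promoters of the genes that fell (3.75%).

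Of 30 measured genes of amino acid synthesis, transport and tRNA charging, 2 fell (6.67%, against 2.1% of all genes tested) and 0 rose. In this list 26 differences were below 0, with a median of -0.14. Slc3a2, the heavy chain of the large neutral amino acid transporter, measured 10.58, 10.95, 10.83 and 10.86 in excess replicates 1, 6, 3 and 4 and between 10.96 and 11.19 in sufficient arrays. It fell by 0.30 ± 0.07 (SE; adjusted p = 0.0115 in limma), and the replicate 6 arrays differed by -0.01. Asns, asparagine synthetase, fell by 0.28 ± 0.08 (adjusted p = 0.0409), and the replicate 6 arrays differed by 0.01. The Asns call was lost under both other scalings (adjusted p = 0.0814 and 0.154 in limma), and that of Slc3a2 with centred arrays. Endoplasmic reticulum chaperones, a separate branch of stress response, had 0 called of 23, with 19 above 0 and a median of 0.07. Hspa5, the main chaperone of that compartment, was at 13.88 ± 0.01 in excess and 13.73 ± 0.08 in sufficient medium (SD, n = 4 and 5; adjusted p = 0.113).

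**Figure D3:**
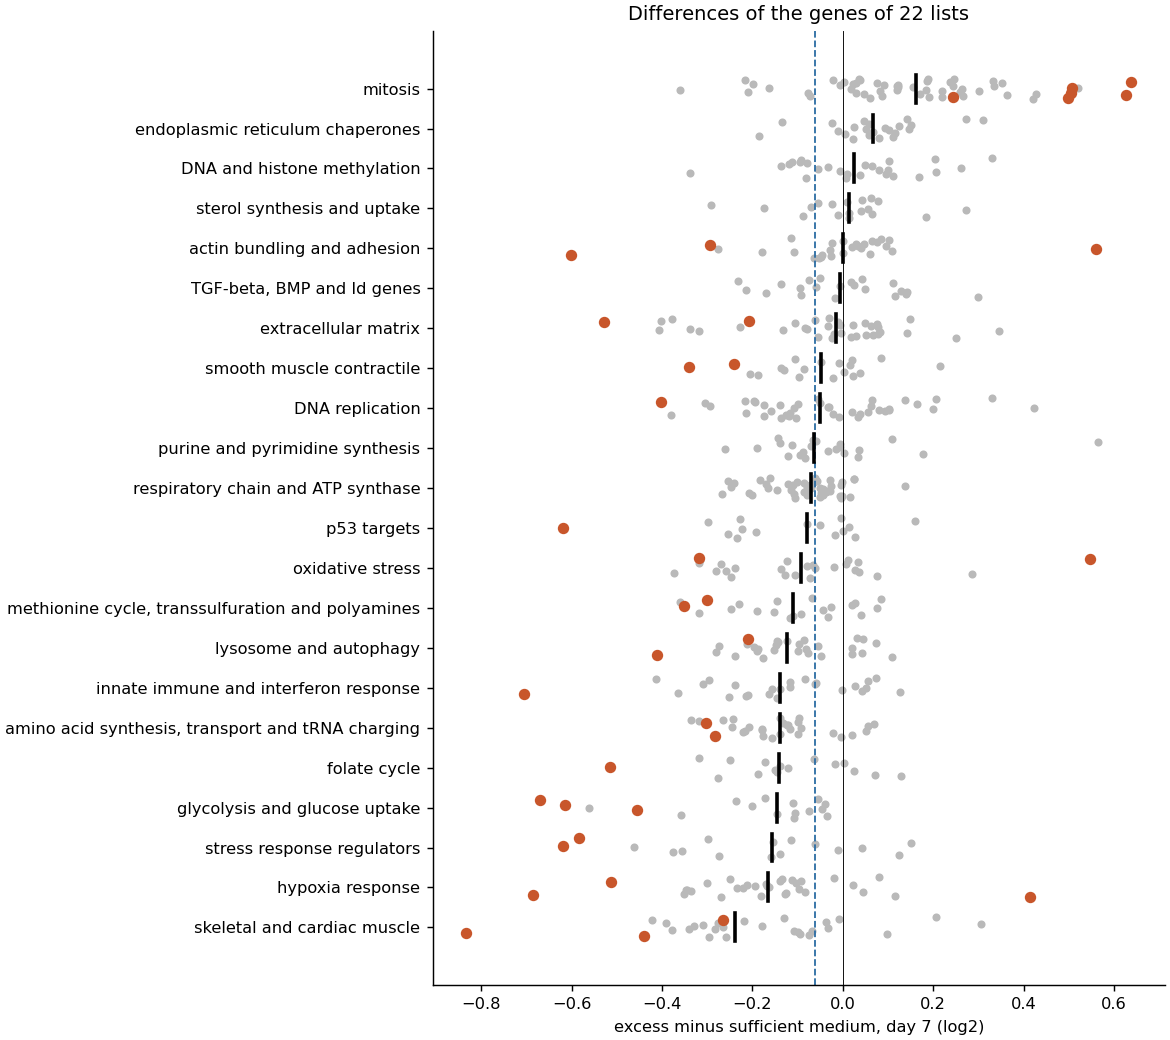
Excess minus sufficient medium at day 7 (x axis, log2) for the measured genes of 22 lists (y axis, ordered by median). Each point is a gene, filled orange where it passed an adjusted p of 0.05 in limma, black bars are list medians, and the dashed line is the median of all genes tested (-0.06); mitosis has the highest median (0.16) and skeletal and cardiac muscle the lowest (-0.24).

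Of the genes that handle folate itself, 1 differed between the media. The folate cycle list had 16 measured members, and Mthfd2 fell (6.25%, against 2.1% of all genes tested) while 0 rose. In this list 12 of 16 differences were below 0, with a median of -0.14 (-0.06 under both other scalings). Mthfd2 (probe set 1372808_at), the mitochondrial methylene-tetrahydrofolate dehydrogenase of proliferating cells, measured 8.43, 8.86, 8.35 and 8.55 in excess replicates 1, 6, 3 and 4 and 9.29, 9.06, 9.20, 8.88 and 8.90 in sufficient replicates 1, 2, 6, 4 and 5. The groups came close to each other without overlapping. It fell by 0.52 ± 0.15 (SE), or 1.43-fold, with an adjusted p of 0.0476 in limma, just inside the threshold, and the call was lost in 16 of 24 other fits.

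None of the uptake genes passed. Slc19a1, the reduced folate carrier, was at 4.86 ± 0.06 in excess and 4.92 ± 0.24 in sufficient medium (SD, n = 4 and 5), and the receptor gene Folr1 was near background, at 3.92 ± 0.13 and 3.79 ± 0.22, with adjusted p of 0.828 and 0.624 in limma. Fpgs, which adds the glutamate tail that holds folate in the cell, differed by 0.07 ± 0.09 (SE), and Ggh, which removes it, by -0.14 ± 0.07. Neither passed.

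In the cytosol, Mthfd1 differed by -0.15 ± 0.07 (SE), Shmt1 by -0.17 ± 0.10, Tyms, thymidylate synthase, by -0.32 ± 0.15 and Mtrr, which restores methionine synthase, by less than 0.01. In the mitochondria, Shmt2 differed by -0.25 ± 0.14, Mthfd1l by -0.12 ± 0.16, Mthfd2l by -0.14 ± 0.15, Gcsh of glycine cleavage by -0.19 ± 0.08 and Mtfmt, which formylates initiator tRNA, by 0.03 ± 0.11. Aldh1l1, near background, and Mthfs differed by -0.28 ± 0.14 and -0.02 ± 0.12. None of these passed, with adjusted p of 0.206 or more in limma. For Tyms the spread in excess medium was wide, with an SD of 0.47.

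In the pathways fed by folate, 2 of 21 genes of the methionine cycle, transsulfuration and polyamines fell and 0 rose. The share was 9.52%, against 2.1% of all genes tested called lower. Mat1a, a methionine adenosyltransferase typical of liver, was at 6.12 ± 0.14 in excess and 6.48 ± 0.11 in sufficient medium (SD, n = 4 and 5; adjusted p = 0.0451 in limma). This call was lost in 17 of 24 other fits, both other scalings among them (adjusted p = 0.235 and 0.189). For Sat1 it was lost in 9. Sat1, which acetylates polyamines for export, was at 10.35 ± 0.14 and 10.65 ± 0.17 (adjusted p = 0.0107). Of 22 purine and pyrimidine genes and 26 genes of DNA and histone methylation, 0 were called, with medians of -0.06 and 0.02. In these lists 3 each had an unadjusted p below 0.05, and Ppat, the first enzyme of purine synthesis, was at 7.08 ± 0.22 and 6.51 ± 0.77.

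Muscle genes gave the lowest list median. Of 28 measured genes of skeletal and cardiac muscle, 3 fell (10.7%, against 2.1% of all genes tested) and 0 rose. In this list 25 differences were below 0, and the median was -0.24 (-0.19 and -0.16 under the 2 other scalings). Cox6a2 (probe set 1367782_at), the heart and skeletal muscle form of a cytochrome oxidase subunit, had the smallest adjusted p of all genes. It measured 7.11, 7.58, 6.87 and 7.30 in excess replicates 1, 6, 3 and 4 and 8.26, 8.16, 7.95, 7.92 and 7.94 in sufficient replicates 1, 2, 6, 4 and 5. The groups did not overlap, and excess replicate 6 was the closest to the sufficient arrays. Cox6a2 fell by 0.83 ± 0.11 (SE), or 1.78-fold (adjusted p = 1.29e-05 in limma), and the replicate 6 arrays alone differed by -0.37.

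Casq1, calsequestrin, which binds calcium in the sarcoplasmic reticulum, measured between 6.60 and 6.70 in excess and between 6.83 and 7.26 in sufficient arrays, and fell by 0.44 ± 0.09 (SE; adjusted p = 0.00508 in limma). Tnnc2, the fast muscle troponin C, was abundant and fell by 0.26 ± 0.06 (adjusted p = 0.0112). In the smooth muscle contractile list, 2 of 19 fell (10.5%, against 2.1% of all genes tested). Mylk, the myosin light chain kinase, fell by 0.34 ± 0.08 and the transcription factor Srf by 0.24 ± 0.06 (adjusted p = 0.0139 and 0.0316). Both genes have another measured probe set with the opposite sign. Cnn1, calponin, differed by -0.19 ± 0.06 and did not pass (adjusted p = 0.0585), and the median of the list, -0.05, was 0.03 with centred arrays.

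In the list of actin bundling and adhesion genes, 2 of 28 measured members fell (7.14%) and 1 rose (3.57%). Of all genes tested, 2.1% and 0.275% did. In the list 15 differences were above 0 and 13 below, with a median of 0.00018. Capg, which caps actin filaments, measured 6.46, 6.61, 6.51 and 6.50 in excess replicates 1, 6, 3 and 4, within an SD of 0.06, and 7.12, 7.33, 6.84, 7.04 and 7.27 in the sufficient arrays. It fell by 0.60 ± 0.10 (SE; adjusted p = 0.00122 in limma). Lims2, an adaptor of integrin adhesions outside the list, measured 8.74, 8.91, 8.94 and 8.75 in excess arrays and between 9.26 and 9.66 in sufficient ones, and fell by 0.58 ± 0.10 (adjusted p = 0.000653). Both calls were lost only in the 2 fits that gave 0 calls. Lcp1, another actin bundler, fell by 0.29 ± 0.08, a call lost in 12 of 24 other fits. Fscn1, fascin, which bundles actin in protrusions, rose by 0.56 ± 0.11 from near background. Its level was 4.10 ± 0.16 in sufficient and 4.66 ± 0.18 in excess medium (SD, n = 5 and 4; adjusted p = 0.00445 in limma). The Fscn1 call was lost in 6 of 23 other fits, among them the mean of its probe sets and beta-actin differences up to 2.

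Casp4 (probe set 1387818_at), the inflammatory caspase that senses endotoxin, measured 7.93, 7.94, 7.55 and 7.44 in excess replicates 1, 6, 3 and 4 and 8.35, 8.54, 8.60, 8.18 and 8.43 in sufficient arrays. All excess arrays lay below all sufficient ones, and the replicate 6 arrays differed by -0.66. It fell by 0.70 ± 0.11 (SE), or 1.63-fold (adjusted p = 0.000604 in limma). Casp4 was the 1 called gene of 25 measured in the innate immune list (4%, against 2.37% of all genes tested). Txnip, which binds thioredoxin and limits glucose uptake, rose by 0.55 ± 0.15 (adjusted p = 0.0463), with replicate 6 at 6.38 the highest excess array. The replicate 6 arrays differed by 1.13. In serials up to 45 the Txnip difference was 0.36 and did not pass (adjusted p = 0.145 in limma). The thioredoxin reductase gene Txnrd1 fell by 0.32 ± 0.08 (adjusted p = 0.0287), and its other measured probe set had the opposite sign.

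Among genes of no fixed list, 2 that transport iron were called. Slc40a1, ferroportin, which exports iron, measured 7.64, 8.14, 7.70 and 7.82 in excess replicates 1, 6, 3 and 4 and between 8.29 and 8.59 in sufficient arrays, and fell by 0.61 ± 0.10 (SE; adjusted p = 0.000808 in limma). Tfrc, the receptor for transferrin uptake, named after its values were seen, was at 9.49 ± 0.18 in excess and 10.04 ± 0.06 in sufficient medium (SD, n = 4 and 5), a fall of 0.55 (adjusted p = 0.00122 in limma). Bex1, named likewise as the gene with the largest difference, fell by 0.84 ± 0.15, and excess replicate 6, at 5.73, lay within the sufficient range of 5.54 to 6.18.

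Several lower genes encode secreted or matrix proteins. Ptgds, a prostaglandin D synthase, fell by 0.59 ± 0.13 (SE; adjusted p = 0.00848 in limma), with replicate 1 at 5.41 and the other excess arrays between 6.31 and 6.42. Mgp, the matrix inhibitor of calcification, fell by 0.53 ± 0.13 (adjusted p = 0.0262 in limma). Its excess replicate 4, at 5.21, lay above sufficient replicate 6, at 4.80, and below the other sufficient arrays, at 5.25 to 5.38. Postn, periostin, fell by 0.21 ± 0.05 at a high level (adjusted p = 0.0107), and with centred arrays its difference was -0.13 (adjusted p = 0.256). Mgp and Postn were the 2 called of 36 extracellular matrix genes (5.56%, against 2.1% of all genes tested called lower). The list median was -0.02, which was above 0 under both other scalings.

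The other lists held few or no calls. In the lysosome list 2 of 29 fell (6.9%, against 2.1% of all genes tested), with a list median of -0.12. They were Atp6v1a of the proton pump, by 0.41 ± 0.09 (SE), and the peptidase gene Tpp1, by 0.21 ± 0.06. Of 47 respiratory chain and ATP synthase genes 0 were called, and 43 were below 0, with a median of -0.07 that was 0.01 with centred arrays. Of 18 sterol genes and 21 genes of TGF-beta, BMP and Id signalling 0 were called. Among 15 p53 targets Gadd45a was the 1 call (6.67%, against 2.37% of all genes tested). Of the sterol, TGF-beta, respiratory and chaperone genes, 1, 3, 6 and 4 had an unadjusted p below 0.05. Among further genes in no list, with arrays that did not overlap, Eif4e3 fell by 0.61, Uap1l1 and Camkmt by 0.59 each, Cpxm2 and Vsnl1 by 0.57 each and Asb2 by 0.56. Called genes with overlapping arrays also had large differences, and of these Mlf1 fell by 0.71, Tfec by 0.68 and Rhbdd1 by 0.65, named after their values were seen.

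Deficient medium at day 7 gave values near those of sufficient medium for the lower genes Slc2a1, Bnip3 and Cox6a2, without a test of that difference here. Slc2a1 was at 7.51 ± 0.11 in deficient, 7.43 ± 0.24 in sufficient and 6.76 ± 0.15 in excess medium (SD, n = 4, 5 and 4). Bnip3 was at 8.86 ± 0.09, 8.83 ± 0.16 and 8.14 ± 0.40, and Cox6a2 at 7.94 ± 0.14, 8.05 ± 0.15 and 7.22 ± 0.30. Against deficient medium, 455 genes (5%) passed, 88 higher (0.968%) and 367 lower (4.04%), and the excess arrays are shared with the comparison against sufficient medium. For the higher gene Cdc20 the deficient mean, at 8.57 ± 0.19, lay between those of the other media. Excess against deficient medium did not pass for it (0.40, adjusted p = 0.1 in limma). Among the lower genes Eif4e3, a cap-binding protein, was an exception, with a deficient mean nearer to that of excess medium. It was at 8.52 ± 0.26 in deficient, 8.92 ± 0.12 in sufficient and 8.31 ± 0.14 in excess medium.

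Later days were measured on other arrays. Between excess and sufficient medium, 41.2% of the genes tested passed at day 14, 22.3% higher and 18.8% lower. At day 21, 43.7% passed, 24.4% higher and 19.3% lower. Of the 25 genes higher at day 7, 23 had the same sign at day 14 and 20 were called higher. Of the 191 lower genes, 144 had the same sign, 98 were called lower and 16 were called higher. At day 21 the counts were 21 and 19 of 25, with 1 called the other way, and 146 and 99 of 191, with 18 called higher. Over all genes tested, 57.8% had the same sign as at day 7 at day 14 and 56.5% at day 21.

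Mitosis genes gave larger differences later. The list's median difference was 1.17 at day 14 and 1.02 at day 21, with 50 and 52 of 54 called higher. Of all genes tested, 22.3% and 24.4% were called higher at these days. The difference in effect between days was tested with the interaction term. For Cdc20 the excess effect was 2.17 at day 14 and 2.05 at day 21, larger than at day 7 by 1.54 and 1.42. For Pttg1 it was 2.01 and 1.48. Over the same days these genes decline in deficient medium, in which the median change of the list from day 7 to day 21 was -2.36. Among all genes, 18.4% at day 14 and 24.5% at day 21 had an effect that differed from day 7. At day 14 it was higher than at day 7 for 13.8% and lower for 4.67%, and at day 21 for 17% and 7.53%, and these terms share the day 7 arrays.

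Of the glucose and hypoxia genes, the effect of excess medium kept its sign in Slc2a1, Bnip3, Pfkp and Pdk1, each called lower at both later days. Ndrg1, which fell at day 7, differed by 0.13 at day 14 and 0.03 at day 21 and was not called there (adjusted p = 0.304 and 0.809 in limma), and its effect differed from day 7 by 0.64 and 0.55. Slc2a1 differed by -0.78 at day 14 and -0.37 at day 21, and Pfkp by -1.0 and -1.58, with a difference from day 7 of -0.97 at day 21. In the glycolysis list 15 of 17 were called lower at day 14 and 12 at day 21, with 1 called higher at day 21. Of all genes tested, 18.8% were called lower at day 14 and 19.3% at day 21. Cox6a2 differed by -1.98 and -1.91, and Trib3 by -1.73 and -1.46. Skeletal and cardiac muscle genes were called lower in 16 and 21 of 28, with 2 higher at each day.

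Others turned. Slc40a1, lower at day 7, was higher in excess medium at day 14 by 0.29 and at day 21 by 0.72, and Mgp by 1.00 and 0.88. Rfc2, the replication gene that was lower at day 7, was higher by 0.71 and 0.58. At these days 33 and 38 of 41 replication genes were called higher, against 22.3% and 24.4% of all genes tested. Mthfd2 stayed lower, by 0.64 and 0.47 (adjusted p = 0.00029 and 0.005 in limma), while Mthfd1 and Mtrr were higher, each by 0.37 or more at both days, and Shmt2 was lower by 0.57 at day 14 and higher by 0.46 at day 21.

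**Figure D4:**
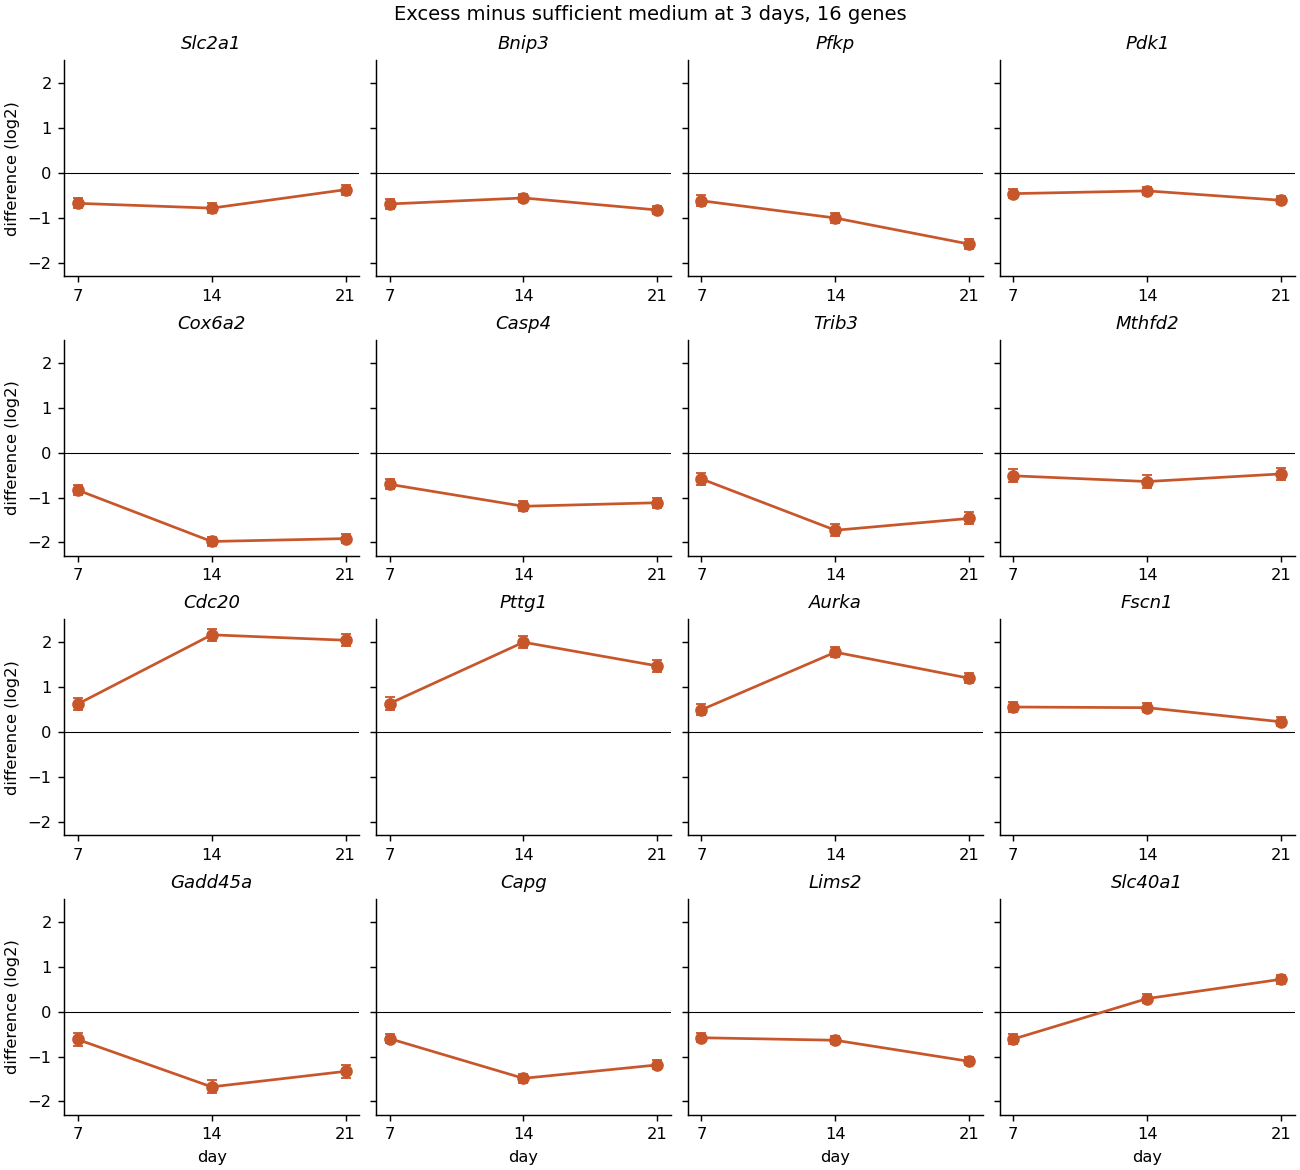
Excess minus sufficient medium (y axis, log2) at days 7, 14 and 21 (x axis) for 16 named genes, with the SE of the limma model as bars; n was 4 and 5 at day 7 and 5 and 5 later. Cdc20, Pttg1 and Aurka lie near 0.5 to 0.64 at day 7 and above 1.2 later, and Slc40a1 changes sign.

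Change with time in deficient medium, on arrays that the comparison does not use, ran against the day 7 differences. Of the 191 lower genes, 115 were called higher at day 21 than at day 7 and 29 lower, and of the 25 higher genes 16 were called lower with time and 7 higher. Of all genes tested, 64.8% were called in that comparison, 30.7% higher and 34.1% lower. As examples of the opposite direction, Cox6a2 rose with time by 1.82, Bex1 by 1.78 and S1pr1 by 4.79. Their differences at day 7 were -0.83, -0.84 and -0.54, and S1pr1 was named after its values were seen.

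**Figure D5:**
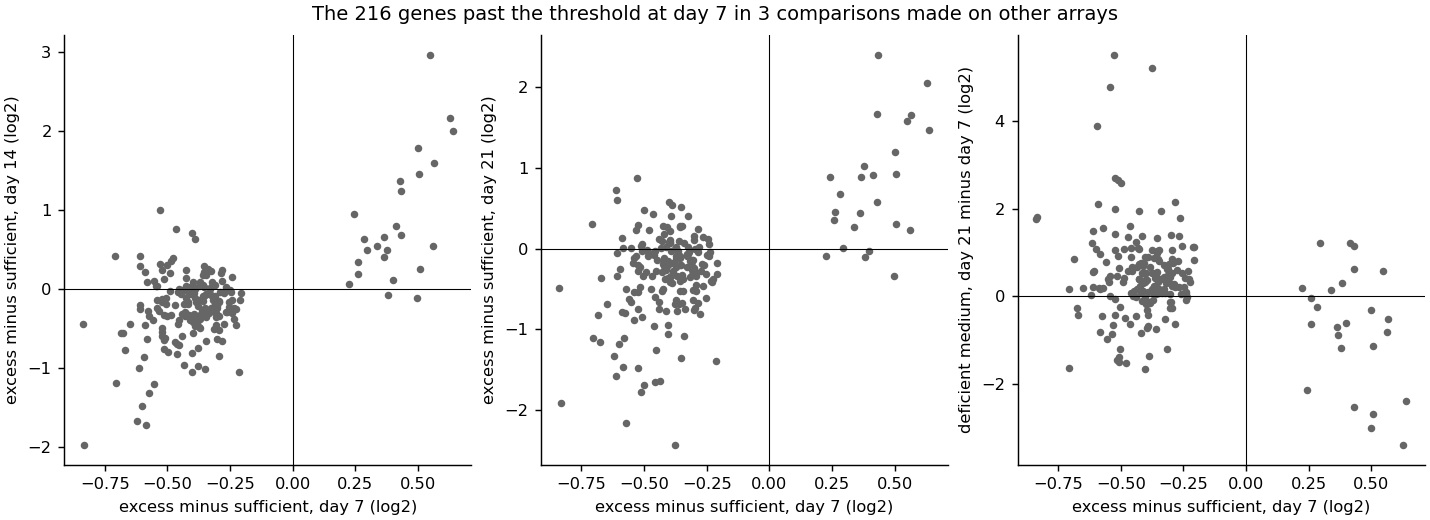
The 216 genes past the threshold at day 7, each a point, with excess minus sufficient medium at day 7 (x axis, log2) against excess minus sufficient medium at day 14 and at day 21, and against day 21 minus day 7 in deficient medium (y axes, log2). Of the 25 higher genes, 23 and 21 stay above 0 at days 14 and 21, and 16 are called lower with time in deficient medium.

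The replicate 6 arrays can be set beside those with serials up to 45, with which they share no array. Among 672 genes called in serials up to 45 alone, 417 (62.1%) had the same sign between the replicate 6 arrays, against 49% of all genes tested, and their median was -0.04 against -0.39 in the serials up to 45. Of the 46 higher genes 30 kept their sign, and of the 626 lower genes 387. With 1 array in each medium, this difference has no test. The mitosis list had a median of 0.31 there, with 48 of 54 above 0, and glycolysis a median of -0.02, with 8 of 17 above 0. Casp4, Bnip3, Ndrg1 and Pdk1 differed by -0.66, -0.53, -0.53 and -0.43.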

How the data were processed

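Values for 31099 probe sets on 43 arrays were deposited on a log2 scale, which the authors made with GCRMA, per the submitters' processing notes; these also name limma, without versions. GCRMA corrects background by probe sequence and normalizes by quantiles, so values near background are uncertain. Probe sets were named from the platform annotation, with 20832 given 1 symbol, and each gene took its probe set with the highest mean. Genes above log2 4 in at least 4 arrays were kept, 9095 of 14218. A model of 9 group means was fitted to all arrays with limma 3.58.1 (R 4.3.3; 34 residual and 4.12 prior degrees of freedom), with two-sided moderated tests and Benjamini-Hochberg adjustment over all genes tested. Arrays limit the precision by their number, and replicate arrays of day 7 correlated between 0.9872 and 0.9974, with 0 identical pairs. Excess and sufficient arrays of day 7 correlated with each other between 0.9895 and 0.9963, within the range of the replicates. The fit was tested on simulated data.

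The members and the 22 gene lists were chosen with earlier results of these data known. Named genes were the 15 lowest and 10 highest called differences without overlap, up to 3 further called members of each list, every measured folate cycle gene, and up to 3 members that did not pass of a list described. Alternatives covered a possible array series (title serials above 45, whose meaning the labels do not state), RNA quality, scaling, filter, probe sets, samples in the fit, weights, variance prior, replicate block and left-out arrays. The reported fit did not pair samples by replicate number. Deviations of arrays with a shared number correlated at -0.0452 for number 1, 0.0482 for number 4 and 0.59 for number 6. The replicate 6 arrays may therefore share a shift, which the reported fit does not model. Promoters came from the RefSeq table of GRCr8, which held 7715 of the genes tested. Plots were made with Python 3.11.15 and matplotlib 3.10.9.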

Additional observations from a re-analysis of the deposited data

Results flagged for a closer look

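For called genes named above, the effect of excess medium at a later day differed from that at day 7 by an interaction term in limma past an adjusted p of 0.05. These terms share the day 7 arrays. They are listed as the later effect minus the effect at day 7, on the log2 scale.

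Genes of division had larger positive effects later. At day 14 the terms were 1.54 for Cdc20, 1.37 for Pttg1, 1.28 for Aurka, 0.96 for Cenpe, 0.94 for Ncapd2 and 0.71 for Bub1. At day 21 they were 1.42 for Cdc20, 1.24 for Ncapd2, 0.84 for Pttg1, 0.70 for Aurka and 0.64 for Bub1. Other genes higher at day 7 had terms of 2.42 and 1.04 (Txnip), 0.39 and 0.50 (Adm) and 0.30 and 0.53 (Hnrnpa2b1) at days 14 and 21. For RT1-A, a class I histocompatibility gene near background, they were -0.46 and -0.49, and for Spetex2l2 the term was -0.43 at day 21.

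Many genes lower at day 7 were lower still. The terms at days 14 and 21 were -1.15 and -1.08 for Cox6a2, -1.14 and -0.88 for Trib3, -1.06 and -0.71 for Gadd45a, -0.88 and -0.59 for Capg, -0.75 and -1.59 for Vsnl1, -0.66 and -1.01 for Mat1a and -0.37 and -0.39 for Asns. Single terms were -0.49 for Casp4 and -0.33 for Slc3a2 at day 14, and -0.97 for Pfkp, -0.74 for Mylk and -0.53 for Lims2 at day 21.

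For other lower genes the term was positive, so that the difference shrank or changed sign. At days 14 and 21 it was 1.53 and 1.41 for Mgp, 1.12 and 0.99 for Rfc2, 0.90 and 1.33 for Slc40a1, 0.80 and 0.72 for Camkmt, 0.64 and 0.55 for Ndrg1 and 0.27 and 0.40 for Tnnc2. Sat1 had a term of 0.41 at day 21.

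In 13 of 158 groups (79 named genes in 2 media) the highest or lowest array lay far from the others by Dixon's critical value. Chance gives about 1 such case in 20 groups, or about 7.9 here. In excess medium, replicate 1 stood apart for Ptgds (5.41), Eif4e3 (8.10), Tnnc2 (10.43) and Ggh (9.72), replicate 6 for Mthfd1l (5.95) and replicate 4 for Ncapd2 (10.30). In sufficient medium, replicate 6 stood apart for Ncapd2 (9.43), Sesn2 (9.02), Mgp (4.80) and Ero1a (4.53), replicate 5 for Myl4 (6.93) and Xbp1 (10.79) and replicate 1 for Mthfs (8.20).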

How the results depend on the processing

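The 216 calls at day 7 depended on the fit. The count was 379 with a covariate for the possible array series, 672 in serials up to 45, 783 with array weights, 102 after a further quantile normalization, 87 with centred arrays and 16 with the 13 arrays of day 7. It was 0 with the 9 compared arrays alone (1196 at an unadjusted p below 0.05 in limma). With beta-actin differences up to log2(3) it was also 0 (483), as 1 array remained in each medium, assumed to vary like the other groups. A limit of 2, chosen after seeing the data, gave 25. Leaving out 1 array at a time gave 64 to 544. Counts within 1.5 times of 216 came with no filter (146), a filter at log2 6 (220), the mean of probe sets (187), the beta-actin covariate (189) and an intensity trend (211). With the replicate number as a block 10 genes passed, 9 of them among the 216. Of the differences between days, 1678 at day 14 became 0 with beta-actin up to log2(3) (939 at an unadjusted p below 0.05), 564 with a limit of 2 and 958 with the replicate block, and 2232 at day 21 became 1222 with the limit of 2. Under log2(3) the day 21 term could not be fitted, since 0 excess arrays of that day remained.

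Of the 48 called genes named, 0 kept the call in every fit. Among called genes the sign turned for Txnrd1 with the mean of probe sets (0.019) and for Asns with beta-actin up to log2(3) and between the replicate 6 arrays, which are the same pair (0.012 in both). The other reversals were of genes not called. With beta-actin up to log2(3) these were Chac1 (0.40), Slc19a1 (0.35), Gcsh (0.25), Ero1a (0.13), Mthfs (0.13), Eif4ebp1 (0.038), Mxi1 (0.037), Folr1 (-0.038), Ddit3 (0.025) and Myl4 (0.020). With a limit of 2 they were Mthfs (0.039), Slc19a1 (0.035) and Folr1 (-0.028). Mthfs was 0.019 with the beta-actin covariate, and Mthfs and Slc19a1 were 0.056 and 0.020 after a further quantile normalization and 0.060 and 0.013 with centred arrays. Mtrr was -0.0074 with the covariate for the possible array series, -0.031 with the replicate block and -0.0083 with weights. Among serials up to 45, Mtrr was -0.023 and Mtfmt -0.039. Without single arrays, Mtrr lay between -0.046 and 0.045, Mtfmt between -0.019 and 0.099, Mthfd1l between -0.20 and 0.040, Mthfs between -0.061 and 0.045 and Slc19a1 between -0.16 and 0.0064. The cause of these changes was not tested.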
